A study of Mus musculus with 9 samples.

Results

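Genes of MHC class I and class II antigen presentation, and the guanylate-binding (GBP) and immunity-related (IRG) GTPases that interferon-gamma induces, were followed in the large intestine of mice with a knocked-down helicase gene, Dhx9. The set was a list of 32 symbols, and a gene entered when a probe set on the array carried its Entrez Gene number. Of the 32, 30 had a named probe set and 2, Gbp6 and Tgtp1, had none, out of 24011 genes with a named probe set. All 30 passed the filter on level described with the processing, so no member was lost to low signal. The study measured total RNA of C57BL/6 mice on 9 Affymetrix Mouse Gene 2.0 ST arrays. The control line (FLuc.1309/rtTA) carried a short hairpin against firefly luciferase, which mice lack, and the knockdown lines carried hairpin 1271 (DHX9.1271/rtTA) or hairpin 837 (DHX9.837/rtTA) against Dhx9. All 3 groups also carried rtTA, the doxycycline-dependent activator that switches the hairpin on, and all received doxycycline at 1 mg/ml with 5% sucrose for 14 days from 4 weeks of age. The promoter that drives rtTA is not given in the sources used here, and each hairpin is represented by 1 line. Each group held 3 arrays. Whether replicates are different mice is not stated in the labels, and the p-values rest on the spread among these arrays, which may be technical.

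MHC class I molecules (H2-K1 and H2-D1 with B2m, beta-2-microglobulin) show peptides from inside the cell to CD8 T cells. The peptides are cut by the immunoproteasome (Psmb8, Psmb9, Psmb10), pumped by Tap1 and Tap2 and loaded with the help of tapasin (Tapbp), and Nlrc5 is a transactivator of these genes. Class II molecules are carried by B cells, macrophages and dendritic cells, and in the inflamed gut also by epithelium; their transcription depends on Ciita. Interferon-gamma raises both classes together with the GBP and IRG GTPases, which attack vacuoles that hold pathogens.

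Dhx9 fell to 49.6% of control with DHX9-1271 (log2 fold -1.01, limma adjusted p = 4.91e-05) and to 48.8% with DHX9-837 (log2 fold -1.03, adjusted p = 2.05e-05). The hairpins differed in Dhx9 by -0.02 on the log2 scale (95% interval -0.14 to 0.094). Of 5 large intestine markers tested, Car1 stood between 13.03 and 13.15 in all 9 arrays. Slc26a3, a chloride exchanger, fell with DHX9-1271 (log2 fold -0.27) and DHX9-837 (-0.63), and the water channel Aqp8 fell with DHX9-837 (-0.60). The mean of the 5 was 10.73 to 10.85 in control, 10.79 to 10.82 in DHX9-1271 and 10.46 to 10.63 in DHX9-837, below all other arrays, and its part in the member values was not tested. Of 8 small intestine genes tested, 2 fell over both hairpins (Alpi and Fabp2), where 5.33% of all genes did. All 8 log2 folds were negative with DHX9-1271 (median -0.37), and 4 of 8 with DHX9-837. Between the hairpins all 8 were higher in DHX9-837 (median 0.37), none called. The uncalled Sis (4.60 to 10.46) and Defa24 (5.54 to 11.96) varied widely between arrays within every group. The part of the small intestine genes in the member values was not tested. Replicate 2 had the lowest mean over the GTPase members in each group (7.69 in control, 7.91 in DHX9-1271 and 7.24 in DHX9-837, on the log2 scale), and likewise over the class I members (9.35, 9.28 and 8.94).

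Promoter sequences were available for 25 of the 32 members in RefSeq's table of GRCm38.p6, each covering 250 bases before and 50 after the start of the gene. An interferon-stimulated response element was searched as GAAANNGAAA or its reverse complement TTTCNNTTTC. It was found in 7 of 8 GTPase windows, in 1 of 8 class I windows (B2m), in 0 of 7 class II windows and in that of Socs1. In all genes of the table the share was 3.99% of 27025. The windows of Irgm2 (chr11:58214827-58214976, plus strand), Igtp (chr11:58199406-58199555, plus strand), Gbp2 (chr3:142620513-142620662, plus strand), Gbp7 (chr3:142530186-142530335, plus strand) and B2m (chr2:122147537-122147686, plus strand) are shown because they hold that element. Ifi47 (chr11:49076437-49076586, plus strand) and Tapbp (chr17:33919328-33919477, plus strand) are shown because both fell and neither window has it. Each line gives the 150 bases before the start, 5′ to 3′ on the gene's strand, with the element in capitals.
Irgm2: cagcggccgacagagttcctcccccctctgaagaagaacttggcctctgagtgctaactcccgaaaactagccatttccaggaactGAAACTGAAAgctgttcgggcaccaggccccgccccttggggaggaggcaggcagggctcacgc
Igtp: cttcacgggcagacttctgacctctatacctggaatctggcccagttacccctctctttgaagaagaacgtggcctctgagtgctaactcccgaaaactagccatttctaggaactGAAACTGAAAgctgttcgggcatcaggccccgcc
Gbp2: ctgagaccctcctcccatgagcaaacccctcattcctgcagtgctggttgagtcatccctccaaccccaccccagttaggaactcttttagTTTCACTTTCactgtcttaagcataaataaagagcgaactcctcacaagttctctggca
Gbp7: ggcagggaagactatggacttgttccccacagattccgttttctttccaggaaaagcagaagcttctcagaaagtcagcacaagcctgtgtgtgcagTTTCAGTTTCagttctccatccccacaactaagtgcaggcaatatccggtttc
B2m: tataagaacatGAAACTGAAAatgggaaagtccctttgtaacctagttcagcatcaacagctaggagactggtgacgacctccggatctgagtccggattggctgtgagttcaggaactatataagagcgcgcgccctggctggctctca
Ifi47: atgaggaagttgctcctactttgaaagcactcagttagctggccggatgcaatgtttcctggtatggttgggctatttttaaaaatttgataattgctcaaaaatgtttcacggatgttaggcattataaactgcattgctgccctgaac
Tapbp: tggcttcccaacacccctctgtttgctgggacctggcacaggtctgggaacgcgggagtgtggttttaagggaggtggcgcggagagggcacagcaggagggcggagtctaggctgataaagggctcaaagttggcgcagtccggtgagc

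The windows of Irgm2 and Igtp, next to each other on chromosome 11, were identical in 103 of 120 aligned bases. In Irgm2 the element lay 64 to 55 bases before the start, and in Igtp 34 to 25. A gamma-activated site, searched as TTCNNNGAA, was present in 6 of 25 members (Psmb8, H2-DMb2, Gbp7, Irgm2, Igtp and Tgtp1) against 9.55% of all genes, and no match overlapped the response element. A match describes letters in a window, not a site in use, and a window with no match lacks only these letters.

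Class II promoters carry the X and Y boxes at which the enhanceosome assembles. The X box, searched as TAGCAAC on both strands, was in 2 of 7 class II windows (H2-Eb1 and H2-Ob) and in 4.28% of all genes. The Y box, searched as CTGATTGG on both strands, was in 3 of 7 class II windows (H2-Aa, H2-Eb1 and H2-Oa). It was in 4 of 8 class I windows (H2-K1, H2-D1, Tap1 and Psmb9) and in 4.7% of all genes. The Tap1 and Psmb9 windows overlap by 275 bases and hold the same site, counted in both. In H2-K1 the match lies after the start. H2-Aa (chr17:34287824-34287973, minus strand) and H2-Eb1 (chr17:34305717-34305866, plus strand) are shown because the first holds the Y box and the second both boxes. H2-DMb2 (chr17:34145099-34145248, plus strand), the class II member that moved most, and its neighbour H2-DMb1 (chr17:34153041-34153190, plus strand) held neither in these letters. Capitals mark the boxes.
H2-Aa: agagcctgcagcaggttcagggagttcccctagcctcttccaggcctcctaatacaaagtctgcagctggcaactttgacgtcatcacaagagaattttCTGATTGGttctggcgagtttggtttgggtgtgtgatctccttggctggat
H2-Eb1: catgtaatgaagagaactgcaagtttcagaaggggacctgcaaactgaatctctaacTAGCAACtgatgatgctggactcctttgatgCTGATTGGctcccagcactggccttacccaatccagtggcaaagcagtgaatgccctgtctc
H2-DMb2: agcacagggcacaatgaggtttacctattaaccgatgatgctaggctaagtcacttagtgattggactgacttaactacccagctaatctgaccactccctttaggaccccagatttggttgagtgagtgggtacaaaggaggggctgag
H2-DMb1: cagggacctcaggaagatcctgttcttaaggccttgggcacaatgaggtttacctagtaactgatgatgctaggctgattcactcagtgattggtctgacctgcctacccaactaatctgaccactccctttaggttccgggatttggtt

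The printed windows of H2-DMb2 and H2-DMb1 were identical in 103 of 121 aligned bases.

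Across the members, class I genes and GTPases fell and class II genes rose where a change was called with hairpin 837. Against control, DHX9-837 had 9 members that fell (6 class I and 3 GTPases) and 3 that rose (all class II) among 30 tested, where 6.91% of all 16808 genes tested fell and 8.67% rose. DHX9-1271 had 2 that fell and 0 that rose, where 1.58% and 2.83% of all genes did; 0 rises is the count by limma at an adjusted p under 0.05, the threshold for every call here. Over both hairpins together 7 fell and 1 rose, beside 5.33% and 8.13% of all genes. No member passed a test against a fold of 1.5 in any comparison, so the calls are of changes that were not shown to be larger than that. The 12 calls of DHX9-837 came to 6 without DHX9-837 replicate 1, to 7 without Control replicate 1 or DHX9-1271 replicate 3, and to 11 without Control replicate 2 or DHX9-837 replicate 2. The 2 of DHX9-1271 came to 0 without DHX9-1271 replicate 2 or 3 and to 1 without Control replicate 1 or DHX9-1271 replicate 1. The 8 over both hairpins came to 2 without Control replicate 1 or 3, DHX9-1271 replicate 3 or DHX9-837 replicate 1, and to 4 without DHX9-1271 replicate 2. Calls over all 16808 genes moved too. With DHX9-837, 1457 rose and 1161 fell in the main fit, and 1143 and 775 without DHX9-837 replicate 1. With DHX9-1271, 475 rose and 266 fell, and 131 and 73 without DHX9-1271 replicate 2, or 77 and 51 without its replicate 3. Over both hairpins, 1367 rose and 896 fell, and 779 and 584 without Control replicate 1. The comparisons share the control arrays, and their values are given side by side without being set against each other.

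**Figure D1:**
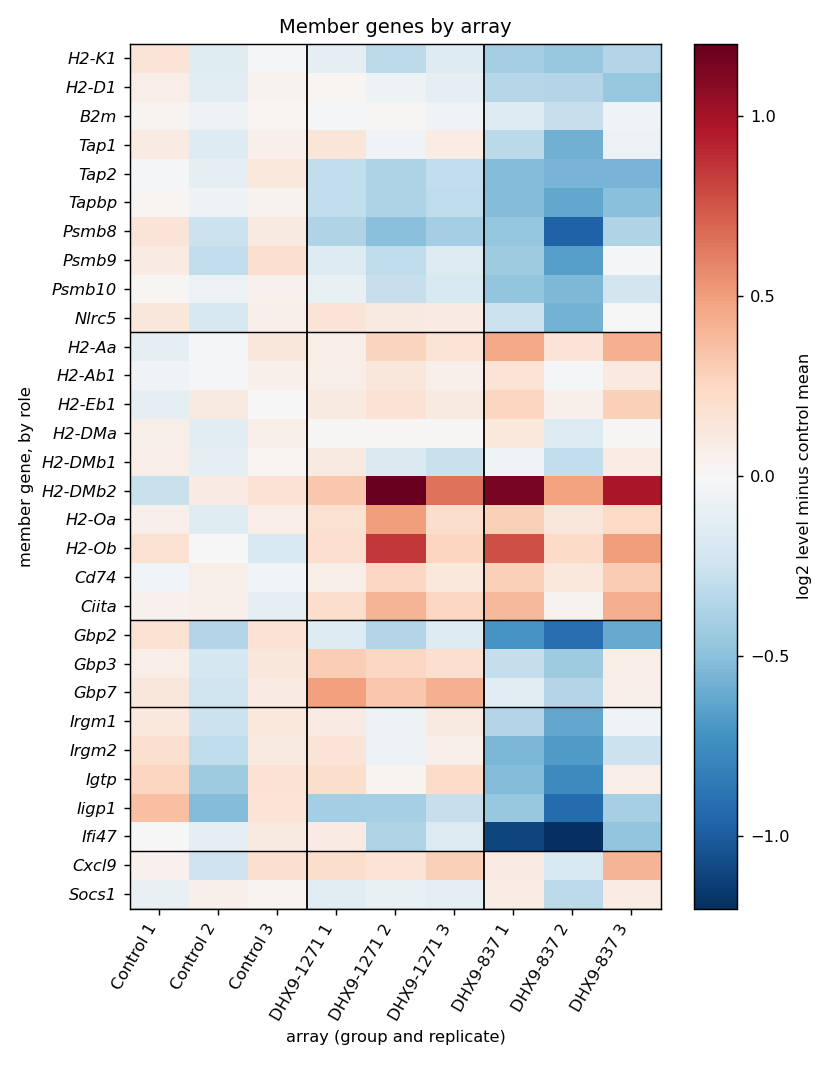
Each cell is the log2 level of 1 member in 1 array minus the control mean of that member, for 30 members by role and 9 arrays. Class I members are below the control mean in most DHX9-837 arrays, H2-DMb2 is above it in all knockdown arrays, and the GTPases are low in DHX9-837 replicates 1 and 2.

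Class I genes fell with hairpin 837. In DHX9-837, 6 of 10 fell, none rose and all 10 log2 folds were negative (median -0.40), against a median of -0.0012 over all genes tested. In DHX9-1271, 2 of 10 fell and the median was -0.19, against 0.0057 over all genes. Of all genes tested, 6.91% fell in DHX9-837 and 1.58% in DHX9-1271. This is RNA of whole tissue, in which fewer cells of a type and less RNA per cell cannot be told apart.

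Tapbp, the chaperone that holds empty class I molecules at the peptide pump, had log2 levels of 9.77, 9.69 and 9.79 in the control arrays, 9.46, 9.38 and 9.45 in DHX9-1271, and 9.23, 9.13 and 9.25 in DHX9-837. The 3 groups did not overlap. Tapbp fell to 79.9% of control with DHX9-1271 (log2 fold -0.32, SE 0.053, adjusted p = 0.0147) and to 68.3% with DHX9-837 (-0.55, SE 0.053, adjusted p = 0.000414). The DHX9-1271 call was lost without DHX9-1271 replicate 2 or 3 (adjusted p up to 0.0635), while the DHX9-837 call was kept without any 1 array.

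Tap2, a chain of the peptide pump, read 7.88, 7.79 and 8.02 in control, 7.60, 7.52 and 7.60 in DHX9-1271, and 7.38, 7.34 and 7.34 in DHX9-837. Again each group lay apart from the others, with DHX9-837 lowest. The log2 fold was -0.32 with DHX9-1271 (SE 0.063, adjusted p = 0.0273) and -0.55 with DHX9-837 (adjusted p = 0.000928). The DHX9-1271 call was lost without Control replicate 1 or without any 1 of the DHX9-1271 arrays (adjusted p up to 0.107). Tap1, the other chain, was not called: its log2 fold was 0.06 with DHX9-1271 and -0.32 with DHX9-837 (adjusted p = 0.116).

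**Figure D2:**
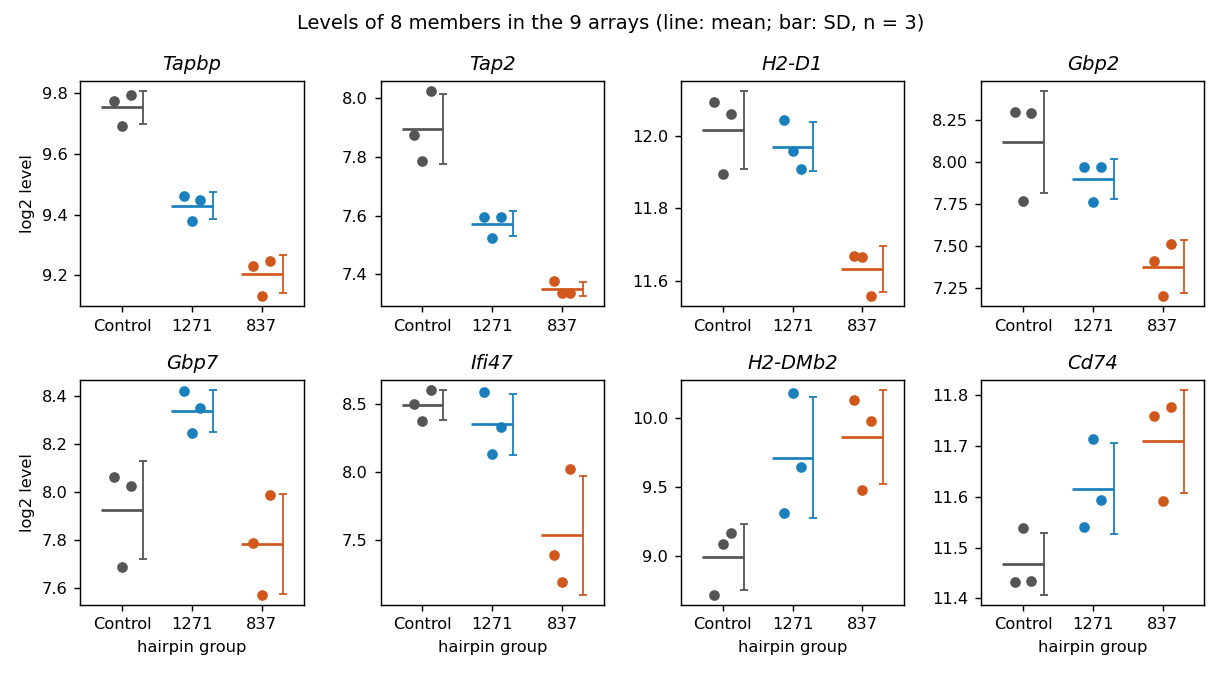
Log2 levels of 8 members in the 9 arrays, 1 panel per gene, with points for arrays, a line for the group mean and a bar for the SD (n = 3). Tapbp and Tap2 step down from control to DHX9-1271 to DHX9-837, while H2-D1, Gbp2 and Ifi47 are low in DHX9-837 and Gbp7 is high in DHX9-1271.

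The heavy chains followed the same direction. H2-K1 read 11.02, 10.72 and 10.85 in control, 10.74, 10.55 and 10.70 in DHX9-1271, and 10.45, 10.41 and 10.51 in DHX9-837. The DHX9-837 arrays lay below all others, and control and DHX9-1271 overlapped. H2-K1 fell to 75.4% of control with DHX9-837 (log2 fold -0.41, SE 0.082, adjusted p = 0.0117) and had a log2 fold of -0.20 with DHX9-1271 (adjusted p = 0.222).

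H2-D1 read 12.09, 11.89 and 12.06 in control, 12.04, 11.96 and 11.91 in DHX9-1271, and 11.67, 11.67 and 11.56 in DHX9-837. Here DHX9-1271 lay within the control range and DHX9-837 below both. H2-D1 fell to 76.6% of control with DHX9-837 (log2 fold -0.38, adjusted p = 0.00613) and had a log2 fold of -0.05 with DHX9-1271 (95% interval -0.20 to 0.11, adjusted p = 0.748). The light chain B2m was not called, with log2 folds of -0.01 with DHX9-1271 and -0.16 with DHX9-837 (adjusted p = 0.115). H2-K1, H2-D1 and the H2-Q and H2-T genes are near copies, and signal between such copies may be shared, since the probe set definition is not given in the sources used here.

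Of the immunoproteasome subunits, Psmb10 read 9.30, 9.22 and 9.34 in control, 9.20, 9.01 and 9.10 in DHX9-1271, and 8.82, 8.75 and 9.07 in DHX9-837. Both knockdown groups lay below control, and they overlapped each other. Psmb10 fell with DHX9-837 (log2 fold -0.41, SE 0.088, adjusted p = 0.015), a call lost without DHX9-837 replicate 1 (adjusted p = 0.053), and had a log2 fold of -0.18 with DHX9-1271 (adjusted p = 0.278).

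Psmb8 read 8.78, 8.36 and 8.73 in control, 8.27, 8.12 and 8.22 in DHX9-1271, and 8.16, 7.65 and 8.26 in DHX9-837. Its lowest control array was above every knockdown array. Psmb8 fell to 66.2% of control with DHX9-837 (log2 fold -0.60, SE 0.16, adjusted p = 0.038) and had a log2 fold of -0.42 with DHX9-1271 (adjusted p = 0.184). The DHX9-837 call was kept only without Control replicate 2 or DHX9-837 replicate 3 and was lost without each of the other 7 arrays (adjusted p up to 0.114). Psmb9, which shares its start region with Tap1 (starts 226 bases apart on opposite strands), had log2 folds of -0.21 and -0.37 and was not called with either hairpin.

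Nlrc5 read 7.09, 6.76 and 7.01 in control, 7.11, 7.06 and 7.04 in DHX9-1271, and 6.69, 6.38 and 6.96 in DHX9-837. Control overlapped both knockdown groups, and DHX9-837 lay below DHX9-1271. No comparison called it. DHX9-1271 gave a log2 fold of 0.12 (adjusted p = 0.666) and DHX9-837 one of -0.27 (adjusted p = 0.22).

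**Figure D3:**
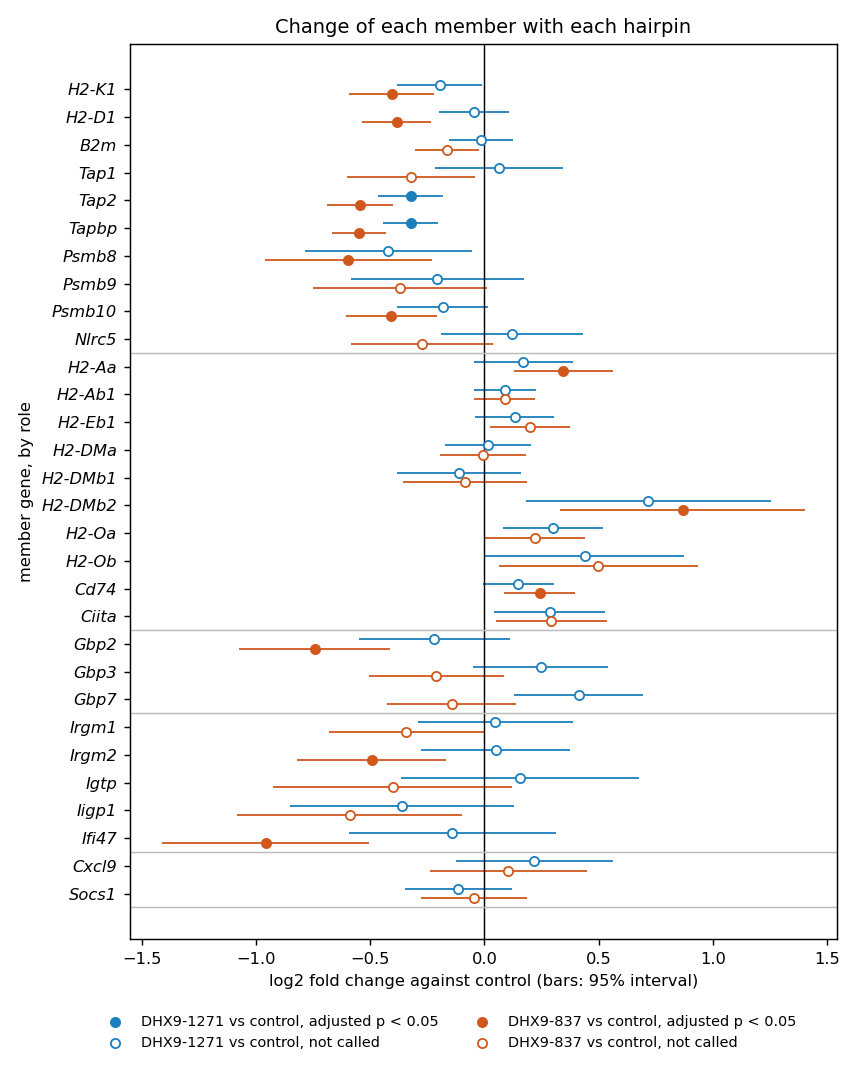
Log2 fold change of each of the 30 members against control, with 95% intervals, for DHX9-1271 (blue) and DHX9-837 (orange). Filled points are called at adjusted p under 0.05; with DHX9-837 these are 6 class I members and 3 GTPases to the left of 0 and 3 class II members to the right.

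Class II genes leaned the other way. With DHX9-837, 3 of 10 class II members rose (H2-DMb2, H2-Aa and Cd74) and none fell, and 8 of 10 log2 folds were positive (median 0.23). Over all genes 8.67% rose with DHX9-837 and 6.91% fell. All 3 rises lost their call without the filter on level and with array weights, among other settings. With DHX9-1271 none was called at an adjusted p under 0.05, while 9 of 10 log2 folds were positive (median 0.16).

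H2-DMb2, a beta chain of the H2-DM molecule that exchanges peptides on class II, read 8.72, 9.09 and 9.17 in control, 9.31, 10.18 and 9.64 in DHX9-1271, and 10.13, 9.48 and 9.98 in DHX9-837. Every knockdown array was above every control array, and the knockdown groups overlapped. Its level was 1.83-fold of control with DHX9-837 (log2 fold 0.87, SE 0.24, adjusted p = 0.0389) and 1.65-fold with DHX9-1271 (0.72, SE 0.24, adjusted p = 0.131). The DHX9-837 call was kept without DHX9-1271 replicate 1 or 2 or DHX9-837 replicate 2, and lost without each of the other 6 arrays (adjusted p up to 0.119). Its near copy H2-DMb1 had log2 folds of -0.11 and -0.08, and the alpha chain H2-DMa 0.01 and -0.01, none of them called. Signal between H2-DMb2 and H2-DMb1 may be shared, since the probe set definition is not given in the sources used here.

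H2-Aa, the class II alpha chain, read 9.56, 9.64 and 9.81 in control, 9.75, 9.94 and 9.83 in DHX9-1271, and 10.12, 9.83 and 10.10 in DHX9-837. The lowest DHX9-837 array was just above the highest control array. H2-Aa rose 1.27-fold with DHX9-837 (log2 fold 0.34, SE 0.096, adjusted p = 0.0419), a call kept only without Control replicate 3 or DHX9-837 replicate 2 among the arrays left out (adjusted p up to 0.125). Its partner H2-Ab1 had log2 folds of 0.09 and 0.09, and H2-Eb1 0.13 and 0.20, none called.

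Cd74, the invariant chain that fills the class II groove until peptide arrives, read 11.43, 11.54 and 11.43 in control, 11.54, 11.71 and 11.59 in DHX9-1271, and 11.76, 11.59 and 11.78 in DHX9-837. All knockdown arrays were above the control arrays, the lowest by a narrow margin. Cd74 rose 1.18-fold with DHX9-837 (log2 fold 0.24, SE 0.069, adjusted p = 0.0462) and had a log2 fold of 0.15 with DHX9-1271 (adjusted p = 0.266). The DHX9-837 call was kept without Control replicate 2, DHX9-1271 replicate 2 or DHX9-837 replicate 2 and lost without each of the other 6 arrays (adjusted p up to 0.134). H2-Oa and H2-Ob, which form the inhibitor of H2-DM, and Ciita were not called, with log2 folds of 0.22 to 0.50 with DHX9-837 and 0.29 to 0.44 with DHX9-1271.

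Cell type markers were read beside the class II genes. Of 9 B cell markers tested, 4 rose with DHX9-837, 2 with DHX9-1271 and 5 over both hairpins. Over all genes the shares that rose were 8.67%, 2.83% and 8.13%. Among the markers that rose with DHX9-837 were Ms4a1 (log2 fold 0.79, adjusted p = 0.0243) and Pax5 (0.47, adjusted p = 0.00662). The mean log2 level of the 9 markers was 6.69 to 6.85 in control, 7.03 to 7.56 in DHX9-1271 and 7.04 to 7.42 in DHX9-837. The mean of the 10 class II members was 8.40 to 8.43 in control, 8.55 to 8.77 in DHX9-1271 and 8.49 to 8.79 in DHX9-837. In both means DHX9-1271 replicate 2 was the highest of its group and DHX9-837 replicate 2 the lowest of its own. In control the means did not run together: replicate 2 was highest for B cell markers (6.85) and replicate 3 for class II members (8.43).

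Of 10 macrophage markers, 5 rose and 1 fell with DHX9-837, where 8.67% and 6.91% of all genes did. Csf1r rose by 0.58 on the log2 scale (adjusted p = 0.000352), and Mertk, named after its value was seen, fell (log2 fold -0.40). The mean of the 10 markers was 7.71 to 7.76 in control, 7.85 to 7.97 in DHX9-1271 and 8.01 to 8.04 in DHX9-837. No dendritic cell marker of 8 tested was called with either hairpin alone; over both, Sirpa rose, and Clec9a and Cd209a were under the level filter. The mean of 10 epithelial markers was 11.04 to 11.07 in control, 11.13 to 11.16 in DHX9-1271 and 11.17 to 11.22 in DHX9-837. With DHX9-837, 4 of the 10 rose (Krt18, Krt19, Krt8 and Tspan8), where 8.67% of all genes did. The median log2 fold of the 10 was only 0.03, and 3 were negative. Group means of Epcam were 11.24, 11.22 and 11.17 in control, DHX9-1271 and DHX9-837, and those of Vil1 11.12, 11.01 and 10.98. The part of these cell types in the class II values was not tested.

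**Figure D4:**
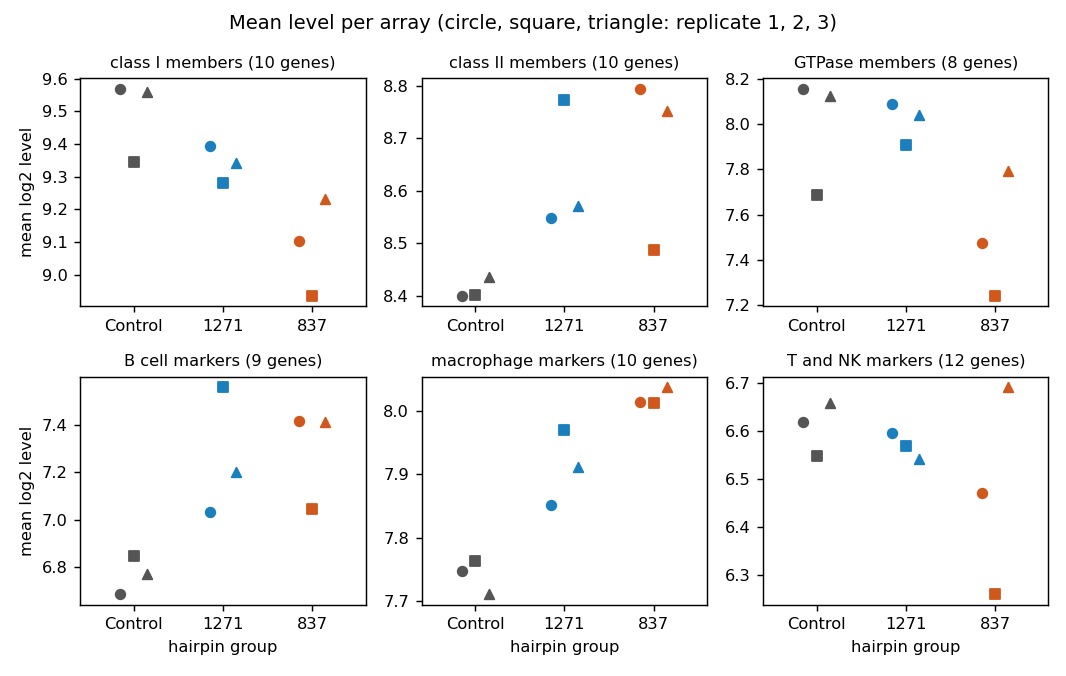
Mean log2 level per array of 3 member groups (top) and 3 marker lists (bottom), by hairpin group; circles, squares and triangles are replicates 1, 2 and 3. B cell means span 6.69 to 6.85 in control and 7.03 to 7.56 in DHX9-1271. Class II means stand in the same order of replicates within the DHX9-1271 group, but not within control.

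Among the GTPases, calls were made with hairpin 837. With it, 3 of 8 fell, where 6.91% of all genes did, and all 8 log2 folds were negative (median -0.45). With DHX9-1271 none of 8 was called and 5 of 8 log2 folds were positive (median 0.05, between -0.09 and 0.13 over the alternatives in processing). Their mean log2 level was 7.69 to 8.16 in control, 7.91 to 8.09 in DHX9-1271 and 7.24 to 7.79 in DHX9-837. The mean of 12 T and NK cell markers was 6.55 to 6.66, 6.54 to 6.59 and 6.26 to 6.69 in these groups. Both means were lowest in DHX9-837 replicate 2, which was also lowest of its group for class I, class II and B cell means. In control replicate 2 was lowest in both. In DHX9-1271 replicate 3 was lowest for the T and NK markers (6.54) and replicate 2 for the GTPases (7.91). With DHX9-837, 11 of the 12 T and NK markers had negative log2 folds (median -0.13, lowest -1.08). None fell by the test, while Cd4 rose (log2 fold 0.85). The part of these markers in the GTPase values was not tested.

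Ifi47, an IRG GTPase, had the largest fall among the members. It read 8.50, 8.38 and 8.60 in control, 8.59, 8.13 and 8.33 in DHX9-1271, and 7.39, 7.19 and 8.02 in DHX9-837. The DHX9-837 arrays were the 3 lowest, with replicate 3 close to the lowest DHX9-1271 array. Ifi47 fell to 51.4% of control with DHX9-837 (log2 fold -0.96, SE 0.20, adjusted p = 0.0131) and had a log2 fold of -0.14 with DHX9-1271 (95% interval -0.60 to 0.31, adjusted p = 0.737). The DHX9-837 call was kept when each array was left out.

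Gbp2, a guanylate-binding protein, read 8.30, 7.77 and 8.29 in control, 7.97, 7.76 and 7.97 in DHX9-1271, and 7.41, 7.20 and 7.51 in DHX9-837. All DHX9-837 arrays were below all others, and Control replicate 2 lay among the DHX9-1271 arrays. Gbp2 fell to 59.7% of control with DHX9-837 (log2 fold -0.74, SE 0.15, adjusted p = 0.0101), kept without any 1 array, and had a log2 fold of -0.22 with DHX9-1271 (adjusted p = 0.43).

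Irgm2, a regulator among the IRG GTPases, read 8.90, 8.41 and 8.82 in control, 8.87, 8.65 and 8.78 in DHX9-1271, and 8.17, 8.04 and 8.45 in DHX9-837. DHX9-837 replicate 3 was above Control replicate 2, so these groups overlapped. Irgm2 fell to 71.0% of control with DHX9-837 (log2 fold -0.49, SE 0.14, adjusted p = 0.0491). The call was kept only without Control replicate 2 or DHX9-837 replicate 3, and lost without each of the other 7 arrays (adjusted p up to 0.144). Its neighbour Igtp, whose promoter is shown above beside that of Irgm2, had a log2 fold of -0.40 with DHX9-837 (adjusted p = 0.285) and 0.15 with DHX9-1271.

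Gbp7 read 8.06, 7.69 and 8.03 in control, 8.42, 8.25 and 8.35 in DHX9-1271, and 7.79, 7.57 and 7.99 in DHX9-837. The DHX9-1271 arrays were above every other array, and DHX9-837 overlapped control. Its log2 fold was 0.41 with DHX9-1271 (95% interval 0.13 to 0.70, adjusted p = 0.104) and -0.14 with DHX9-837 (adjusted p = 0.494). Gbp3, the next gene on chromosome 3, had log2 folds of 0.25 and -0.21, also not called.

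Iigp1 read 7.52, 6.64 and 7.33 in control, 6.75, 6.76 and 6.88 in DHX9-1271, and 6.70, 6.24 and 6.76 in DHX9-837. Control replicates 1 and 3 were the highest arrays, and Control replicate 2 was below every DHX9-1271 array. No comparison called it (log2 fold -0.36, adjusted p = 0.379 with DHX9-1271; -0.59, adjusted p = 0.103 with DHX9-837). Irgm1 had log2 folds of 0.05 and -0.34 (adjusted p = 0.162 with DHX9-837).

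The chemokine Cxcl9, which draws T cells, read 7.45, 7.15 and 7.59 in control, 7.61, 7.56 and 7.68 in DHX9-1271, and 7.49, 7.21 and 7.80 in DHX9-837. All groups overlapped. Its log2 fold was 0.22 with DHX9-1271 (95% interval -0.12 to 0.56) and 0.10 with DHX9-837 (95% interval -0.24 to 0.45). Socs1, the feedback inhibitor of interferon signalling, had log2 folds of -0.11 (95% interval -0.35 to 0.12) and -0.05 (95% interval -0.28 to 0.19), and was not called.

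The hairpins were also compared with each other. H2-D1 was the 1 member called, lower in DHX9-837 than in DHX9-1271 (log2 fold -0.34, SE 0.067, adjusted p = 0.0442), where 1.21% of all genes were called lower and 0.696% higher. That call was kept only without Control replicate 1 or 2 and lost without each of the other 7 arrays (adjusted p up to 0.158) and without the filter on level. All 10 class I members (median -0.22) and all 8 GTPases (median -0.53) had negative log2 folds, against a median of -0.0040 over all genes tested. Ifi47 had -0.82 (95% interval -1.27 to -0.36, adjusted p = 0.0851), Gbp7 -0.56 (adjusted p = 0.0633) and Tapbp -0.23 (adjusted p = 0.071), none past the threshold. The class II median was 0.04.

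Counted by arrays alone, 12 of 30 members had all DHX9-837 arrays below all DHX9-1271 arrays, 7 of them class I and 5 GTPases, where 12.6% of all genes did. Against control, all DHX9-837 arrays were lower for 8 members and higher for 5, where 14.3% and 17.1% of all genes were. All DHX9-1271 arrays lay beyond the control arrays, on either side, for 11 members, where 25.5% of all genes did. They were higher for 7 of these, where 15.4% of all genes were, namely H2-DMb2, H2-Oa, H2-Ob, Cd74, Ciita, Gbp3 and Gbp7.

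The members lie close together in the genome: 15 of the 32 are on chromosome 17, in the MHC. There 11 protein-coding genes in a row, from H2-DMa to H2-Eb1, are all members. In gene order, with DHX9-837 the log2 fold was 0.87 for H2-DMb2 and -0.08 for H2-DMb1, then negative for Psmb9 (-0.37), Tap1 (-0.32), Psmb8 (-0.60) and Tap2 (-0.55), then positive again for H2-Ob (0.50), H2-Ab1 (0.09), H2-Aa (0.34) and H2-Eb1 (0.20). By the test, Psmb8 and Tap2 of this run fell and H2-DMb2 and H2-Aa rose.

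**Figure D5:**
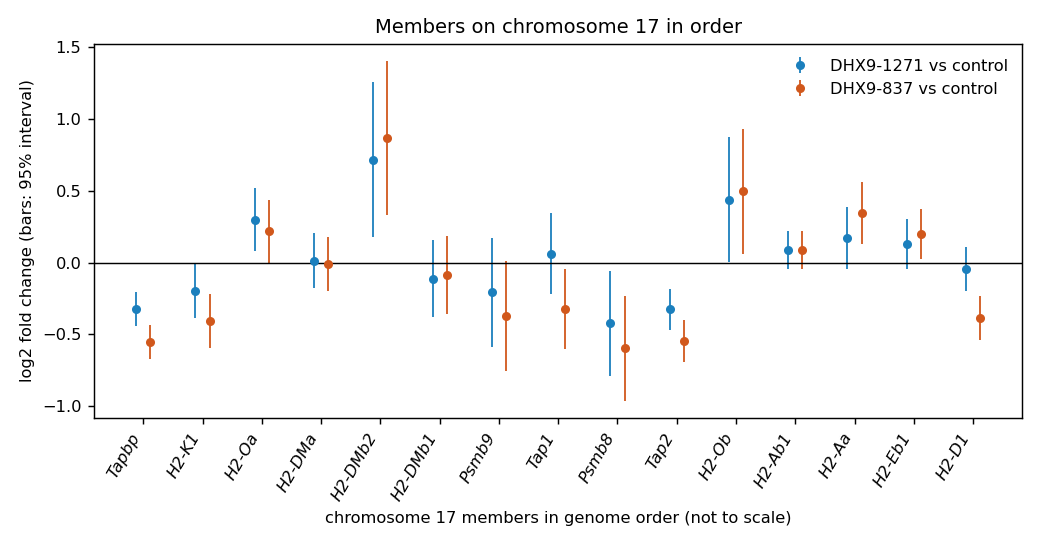
Log2 fold change against control, with 95% intervals, of the 15 members on chromosome 17 in their order along the chromosome (not to scale). The 4 neighbours Psmb9, Tap1, Psmb8 and Tap2 lie below 0 with DHX9-837 (-0.32 to -0.60) between class II genes at -0.08 to 0.87.

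Other genes of the pathway were read from fixed lists. Of 18 tested genes of interferon-gamma signalling and of the class II enhanceosome, 4 fell with DHX9-837 and none rose. Over all genes 6.91% fell and 8.67% rose. The 4 were the transcription factor Irf1, the receptor chain Ifngr2, Irf2, which competes with Irf1 for its sites, and Rfx5, a subunit of the X box complex. Irf1 read 9.24, 8.95 and 9.23 in control, 8.92, 8.85 and 8.89 in DHX9-1271, and 8.62, 8.59 and 8.62 in DHX9-837. The groups did not overlap. Irf1 fell to 69.3% of control with DHX9-837 (log2 fold -0.53, SE 0.075, adjusted p = 0.00243), and its log2 fold with DHX9-1271 was -0.25 (adjusted p = 0.0998). Ifngr2 fell to 80.8% with DHX9-837 (log2 fold -0.31, adjusted p = 0.00582). The log2 folds of Irf2 and Rfx5 were -0.23 and -0.20. Ifng itself was under the level filter, with levels of 4.79 to 5.34.

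Of 19 other class I pathway genes, 6 fell and 1 rose with DHX9-837, and 2 fell with DHX9-1271. Over all genes these shares were 6.91%, 8.67% and 1.58%. Tapbpl, a tapasin homologue that edits class I peptides, fell with both (log2 folds -0.36 and -0.56; adjusted p = 0.0212 and 0.000977). H2-Q2 fell with both (log2 folds -0.49 and -1.04), H2-T3 with DHX9-837 (-1.32, adjusted p = 0.00216) and H2-Q4 with DHX9-837 (-0.52, adjusted p = 0.00738). The gene that rose was Mr1, which presents vitamin metabolites to MAIT cells (log2 fold 0.31, named after its value was seen).

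Of 11 other class II pathway genes, 4 rose and 1 fell with DHX9-837, where 8.67% and 6.91% of all genes did. Among those that rose were Lgmn (log2 fold 0.40), Cd86 (0.48) and Cd40 (0.24). The gene that fell was Ctss, the protease that removes the invariant chain, at 65.3% of control (log2 fold -0.61, adjusted p = 0.000346). The 13 other GTPases and interferon-gamma-induced genes went both ways with DHX9-837, with 7 positive log2 folds and a median of 0.08. Of these, Ido1 fell (log2 fold -0.65, adjusted p = 0.0024) and Wars rose (0.30, adjusted p = 0.00957) with DHX9-837, and none was called with DHX9-1271. Gbp2b and Gbp8, named after their values were seen, had log2 folds of 0.35 and 0.34 with DHX9-837 and were not called (adjusted p = 0.106 and 0.11).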

How the data were processed

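The deposited values are log2 expression levels of 24973 probe sets on 9 arrays, which the authors made by RMA; the submitters' processing notes name oligo 1.30.0 and R 3.1.1. RMA summarises probes by median polish after quantile normalization, which can leave identical values and would hide a shift of most transcripts. Neither a genome build nor how probe sets were defined is given in the sources used here. A platform table named 24015 probe sets and left 958 unnamed, and the brightest was kept per gene. Genes under the 30th percentile of mean level (5.28) were left out, leaving 16808.

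Limma 3.58.1 in R 4.3.3 fitted group means to all 9 arrays, gave two-sided tests with Benjamini-Hochberg adjustment over all genes tested, and set no fold limit. The method was tested on simulated data. Members and lists were chosen with earlier results of these data known. Members with values per array were those called in any comparison and, in each role, the largest fold per comparison. Other lists were named by up to 4 called genes of smallest p. Outside this rule, Car1, Sis, Defa24, Epcam, Vil1, Ifng, Clec9a and Cd209a were also named, besides the genes marked as named after their values were seen. Promoters came from RefSeq (GRCm38.p6). Array numbers limit the precision. Figures used matplotlib 3.10.9.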

Additional observations from a re-analysis of the deposited data

Results flagged for a closer look

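Among the members and the other pathway lists, 5 genes differed by a direct test of DHX9-837 against DHX9-1271 (limma, adjusted over all genes tested). They were 1 of 30 members, 3 of 19 other class I and 1 of 11 other class II pathway genes. Over all genes 1.21% were called lower and 0.696% higher. In the marker lists, which are not counted here, Slc26a3 and Aqp8 were also called lower and 1 of 10 epithelial markers higher. H2-D1 was lower in DHX9-837 by a log2 fold of -0.34 (adjusted p = 0.0442), lower in 3 of 3 arrays. H2-Q2 had -0.55 (adjusted p = 0.0304), H2-T3 -0.89 (adjusted p = 0.0487), H2-T23 -0.44 (adjusted p = 0.0443) and Ctss -0.40 (adjusted p = 0.0156), each with all 3 DHX9-837 arrays below all 3 DHX9-1271 arrays. Of these, H2-T23 is named after its value was seen.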

How the results depend on the processing

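Each comparison was repeated under up to 21 alternatives in processing, 9 of which left out 1 array each. Of 1324 values of named members under an alternative, 1148 kept their direction and side of the threshold, 142 lost a call, 27 were newly called and 7 changed sign. Most of these values were not called in the main fit and so had no call to lose. There were 24015 named probe sets for 24011 genes. Averaging a gene's probe sets, or testing each probe set, could therefore change little and gave the same all-gene counts of calls. Values kept under these settings were close to fixed in advance. All 142 losses were of main calls. With DHX9-837 the losses per call ran from 1 of 21 alternatives for Tapbp to 12 of 21 for H2-Aa and Cd74. The number of members called with DHX9-837 (12) was 7 without a filter on level and 0 with a fold limit of 1.5. With DHX9-1271 the number (2) was 1 without the filter, 1 with only the groups compared and 0 with the fold limit. It was also 1 without genes of identical values, but that fit left out Tap2 itself, so Tap2 lost no call there. For both hairpins the number (8) was 3 without the filter, 4 with array weights and 0 with the fold limit. For DHX9-837 against DHX9-1271 (1) it was 0 without the filter, 3 with the filter at the median gene, 3 with trend and robust moderation, 8 with array weights, 2 without genes of identical values and 0 with the fold limit. The fit with only the groups compared has no form for both hairpins together, which needs all arrays. Calls over all genes moved with the setting too. Without the filter, 1093 of 24011 genes rose and 900 fell with DHX9-837, and 53 and 87 between the hairpins. With array weights, 1048 rose and 702 fell over both hairpins, and 282 and 437 between the hairpins. With the fold limit, 24 rose and 28 fell with DHX9-837. In the main fit these were 1457 and 1161 with DHX9-837, 1367 and 896 over both hairpins, and 117 and 203 between the hairpins. The causes were not tested.

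Leaving out 1 array gave 6 (without DHX9-837 replicate 1) to 11 calls with DHX9-837 and 0 to 2 with DHX9-1271, the 0 without DHX9-1271 replicate 2 or 3. It gave 2 to 7 calls for both hairpins, the 2 without Control replicate 1 or 3, DHX9-1271 replicate 3 or DHX9-837 replicate 1. It gave 0 to 3 calls between the hairpins, the 3 without Control replicate 2. Over all genes, 123 were called higher and 237 lower without Control replicate 2, and 9 and 19 without DHX9-1271 replicate 3. The signs that turned were of uncalled values: Irgm2 with DHX9-1271 ran from -0.10 to 0.14, Cxcl9 with DHX9-837 from -0.046 to 0.25, and between the hairpins Psmb8 from -0.29 to 0.011, H2-DMb2 from -0.049 to 0.38 and Cxcl9 from -0.26 to 0.031.

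Replicate numbers did not consistently pair the samples across all genes, although replicate 2 had the lowest class I and GTPase means in every group. Correlations of same-numbered arrays ran from -0.37 to 0.26. For 1 of 9 arrays the array of the same number was the best match in both other groups. With a replicate block, 12 members were called with DHX9-837 (0 rose and 12 fell) and 3 with DHX9-1271. Over both hairpins 7 were called, and 2 between the hairpins. Across all genes the block gave 1283 rises and 1001 falls with DHX9-837, and 264 and 143 with DHX9-1271. It gave 1178 and 745 over both hairpins, and 62 and 106 between the hairpins. The block ended the DHX9-837 calls of H2-Aa, H2-DMb2 and Cd74 and the H2-D1 call between the hairpins, where it called Gbp2 and Gbp7 instead, and it ended the H2-D1 and H2-DMb2 calls over both hairpins. The number of arrays per group limits what could be called.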
